A study of Mus musculus with 108 samples.

Results

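The open chromatin cloned from hemangioblasts was compared with that cloned from the first stage of the hemogenic endothelium. Both populations were made in culture from HM-1 cells, a mouse embryonic stem (ES) cell line deficient for Hprt, into which the enhancer reporters of the screen were later placed at the Hprt locus. Hemangioblasts (HB) were the FLK1+ cells selected with magnetic beads from embryoid bodies grown in serum. The early endothelium (HE1) was the KIT+ TIE2+ CD41- population sorted by flow cytometry from the blast culture that followed. At each stage, 5 aliquots of cells were treated with the transposase Tn5, the released fragments were combined and amplified, and the pool was cloned into the entry vector pDONR and from there into the reporter vector pSKB. The comparison thus rests on 4 of the 108 samples of the series, namely the sequenced pDONR and pSKB plasmid pools of HB and of HE1. No group received a drug or carried a further mutation. The medium of the blast culture held VEGF, IL-6 and conditioned medium, which are not listed for the medium of the embryoid bodies. The stage thus cannot be told apart from this change of medium. The pools of ES cells, of the later endothelium (HE2, KIT+ TIE2+ CD41+) and of hematopoietic progenitors (HP, KIT+ TIE2- CD41+), 6 samples in all, served to place the result, as did 38 lists of reporter fragments recovered from sorted HB and HE1 cells. Each stage was 1 transposed population, and pSKB was recloned from pDONR, so that the pair of vectors repeats the cloning and not the biology. For this reason no p-value is given for any region, and intervals cover counting error only.

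Tn5 cuts DNA where nucleosomes and other proteins leave it exposed, so the number of distinct fragments from a region was taken as a measure of its accessibility. The hemangioblast is a mesodermal precursor marked by FLK1, the VEGF receptor encoded by Kdr, and its formation from the primitive streak depends on T-box factors, Wnt and Nodal signalling and the ETS factor ETV2. Its descendants first become endothelium, a state run by ETS, SOXF and GATA factors, before some of these cells turn on RUNX1 and become blood. FLK1, KIT and TIE2 (encoded by Tek) were used to select the cells, so the regions at Kdr, Kit and Tek do not provide an independent view of the stage.

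The genome was divided into bins of 500 bp, and a fragment was counted in the bin of its midpoint, once for each vector and stage. Values were scaled to fragments per 1000000 fragments of the list (FPM). A bin was called when the level differed at least 2-fold in the same direction in pDONR and in pSKB. In the following, folds are HE1 over HB for bins higher in HE1 and HB over HE1 for bins higher in HB, log2 ratios are always HE1 over HB, and intervals are exact conditional 95% intervals. A bin with no fragment in the lower list has a fold of at least the value obtained with 3 fragments there. Each bin was assigned to the protein-coding gene with the nearest transcription start within 100 kb, which does not show that the region acts on this gene.

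The sequences of 5 regions higher in HE1 are shown first, since these lie at genes of the endothelium or, in the case of Tmem170b, hold the bin with the largest difference. Each is the central 250 bp of its bin on the forward strand of GRCm38, the assembly that is also called mm10, and none overlaps an annotated UTR. Capitals mark the AP-1 word TGANTCA, the ETS word ACAGGAA, the SOX word ACAATGG or the GATA word AGATAA on either strand. Windows were searched in the bins with the largest differences, the endothelial bins and the bins of the 7 genes examined throughout. This gave 27 windows in this direction, of which 14 held a word. The Tmem170b window held none. The others were chosen, after their values had been seen, among those with a word.
Tmem170b, chr13:41662626-41662875: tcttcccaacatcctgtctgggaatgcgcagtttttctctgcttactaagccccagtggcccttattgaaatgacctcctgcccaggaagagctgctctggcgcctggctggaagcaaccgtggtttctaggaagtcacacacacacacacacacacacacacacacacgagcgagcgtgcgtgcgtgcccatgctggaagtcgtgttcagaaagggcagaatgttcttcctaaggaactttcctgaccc
Kdr, chr5:75974626-75974875: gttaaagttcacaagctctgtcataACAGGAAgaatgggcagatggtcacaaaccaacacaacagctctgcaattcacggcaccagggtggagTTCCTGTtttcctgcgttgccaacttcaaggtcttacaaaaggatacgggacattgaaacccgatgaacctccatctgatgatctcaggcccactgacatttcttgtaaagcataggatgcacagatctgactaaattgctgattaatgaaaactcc
Cdh5, chr8:104096626-104096875: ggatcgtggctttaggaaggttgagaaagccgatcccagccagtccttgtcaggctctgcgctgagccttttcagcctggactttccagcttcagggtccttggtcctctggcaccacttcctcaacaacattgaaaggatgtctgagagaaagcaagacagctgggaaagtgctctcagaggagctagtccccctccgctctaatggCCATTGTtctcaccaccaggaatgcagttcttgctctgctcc
Eng, chr2:32638126-32638375: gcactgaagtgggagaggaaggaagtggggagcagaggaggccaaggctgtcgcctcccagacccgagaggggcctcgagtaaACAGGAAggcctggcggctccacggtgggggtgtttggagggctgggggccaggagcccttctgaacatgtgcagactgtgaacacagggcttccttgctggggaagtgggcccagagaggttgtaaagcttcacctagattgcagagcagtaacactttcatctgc
Ptprb, chr10:116261126-116261375: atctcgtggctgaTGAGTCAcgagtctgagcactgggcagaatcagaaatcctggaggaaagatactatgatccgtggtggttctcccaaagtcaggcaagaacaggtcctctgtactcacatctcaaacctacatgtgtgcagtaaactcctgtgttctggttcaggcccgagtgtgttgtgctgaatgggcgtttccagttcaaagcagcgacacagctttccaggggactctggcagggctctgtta

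The regions higher in HB are shown in the same way, from the mesoderm in place of the endothelial list, with the T-box words AGGTGTGA and AGGTGTTA searched in addition and the SOX word left out. Of 22 windows in this direction, 7 held a word. The Ddx1 window, from the bin with the largest difference, held none, while the Mesp1 window held a T-box word and an ETS word.
Ddx1, chr12:13198126-13198375: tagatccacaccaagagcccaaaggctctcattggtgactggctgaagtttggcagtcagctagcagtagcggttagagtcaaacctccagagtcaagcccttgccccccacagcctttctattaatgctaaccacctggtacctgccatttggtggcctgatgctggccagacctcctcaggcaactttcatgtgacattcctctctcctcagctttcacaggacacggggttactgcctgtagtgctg
Mesp1, chr7:79789626-79789875: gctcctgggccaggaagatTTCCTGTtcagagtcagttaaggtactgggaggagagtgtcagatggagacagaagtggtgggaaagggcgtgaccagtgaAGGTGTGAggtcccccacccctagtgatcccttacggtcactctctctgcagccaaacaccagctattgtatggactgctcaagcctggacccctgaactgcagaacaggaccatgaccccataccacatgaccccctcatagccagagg
Kdr, chr5:76008626-76008875: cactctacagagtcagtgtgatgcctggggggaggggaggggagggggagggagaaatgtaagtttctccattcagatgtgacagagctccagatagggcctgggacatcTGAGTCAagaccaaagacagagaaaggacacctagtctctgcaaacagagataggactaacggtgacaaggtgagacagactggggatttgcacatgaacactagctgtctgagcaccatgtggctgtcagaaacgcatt
Wnt3, chr11:103804626-103804875: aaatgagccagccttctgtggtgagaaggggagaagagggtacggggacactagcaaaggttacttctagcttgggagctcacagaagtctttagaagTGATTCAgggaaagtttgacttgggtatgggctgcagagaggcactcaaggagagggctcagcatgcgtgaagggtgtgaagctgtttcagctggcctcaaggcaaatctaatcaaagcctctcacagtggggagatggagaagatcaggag
Rmdn3, chr2:119149126-119149375: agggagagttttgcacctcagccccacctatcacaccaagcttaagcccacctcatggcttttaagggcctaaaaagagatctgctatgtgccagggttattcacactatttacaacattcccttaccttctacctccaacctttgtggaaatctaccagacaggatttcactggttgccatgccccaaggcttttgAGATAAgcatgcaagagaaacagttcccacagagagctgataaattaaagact

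The pDONR lists held 6225558 distinct fragments for HB and 8832923 for HE1, from 31330192 and 33263313 reads. The pSKB lists were smaller, with 1952358 fragments for HB and 1733003 for HE1, from 20625218 and 22102389 reads. Median fragment length was between 226 and 232 bp in all 4 lists, and between 7.79% and 9.59% of fragments were shorter than 120 bp. Of the pSKB fragments, 82.7% for HB and 78.6% for HE1 were found again in the pDONR list of the same stage, against 3.09% and 2.70% in that of the other stage. Mitochondrial DNA gave between 0.356% and 0.426% of fragments. Between 0.0243% and 0.104% of fragments were also present in the PCR controls on HM-1 cells without a reporter.

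Before any region was read, the labels were held against the promoters of marker genes. Over 1.5 kb on either side of the first annotated start, the 6 hemangioblast promoters summed to 179 FPM in pDONR HB and 113 in pDONR HE1, and to 178 and 130 in pSKB. The promoters of T, Mesp1, Etv2, Pdgfra and Hand1 were higher in HB in both vectors, and that of Kdr was higher in HE1. The 8 promoters of early endothelium summed to 83.7 in HB and 135 in HE1 in pDONR, and to 93.1 and 135 in pSKB. Of these, Cdh5, Tek, Sox17, Sox18 and Kit were higher in HE1 in both vectors, Erg and Emcn were higher in HB, and Pecam1 differed between the vectors. The 6 blood promoters summed to 41.9 in pDONR HB and 70.8 in pDONR HE1, a difference carried by Itga2b, the gene for CD41, at 11.3 and 47.8 FPM. HE1 cells had been sorted as CD41-, and the level was 62.8 in pDONR HE2, which was sorted as CD41+. Of the other blood promoters, those of Spi1, Gfi1 and Gata1 were higher in HB in both vectors, and those of Runx1 and Ptprc differed between the vectors.

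Markers of other cell types also differed. The 5 ES promoters summed to 63.2 in pDONR HB and 24.6 in pDONR HE1, with 64.3 and 28.4 in pSKB, against 106 in the pDONR pool of ES cells themselves. Pou5f1, which encodes OCT4, stood at 20.0 in pDONR HB and 2.50 in pDONR HE1, and Zfp42 at 3.39 and 0.682. The 3 neural promoters summed to 56.4 and 29.7 in pDONR, all 3 of them higher in HB in both vectors, and the 3 endoderm promoters to 20.0 and 9.67, where Afp had no fragment in HB. The cardiac promoters summed to 23.4 and 19.0 in pDONR and to 17.5 and 21.5 in pSKB. As sums, the ES, neural and endoderm promoters were thus higher in HB, and their part in the regions higher in HB described below was not tested. Single promoters differed from the sums, as that of Esrrb, of the ES set, was higher in HE1, with log2 ratios of 0.03 in pDONR and 0.83 in pSKB. In pools of this kind, a smaller share of cells with a region open cannot be told apart from less open chromatin per cell.

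Of 2695282 bins with at least 1 fragment, 47039 held at least 50 fragments over the 4 lists and at least 10 over the pSKB lists and were assessed. They contained between 42.2% and 50.8% of the fragments of each list. A total of 4152 bins were higher in HE1, which is 8.83% of the bins assessed, and 5165 were higher in HB, which is 11.0%. After adjacent bins were merged these were 3637 and 4533 regions. At least a 4-fold difference in both vectors was seen in 1776 bins for HE1 and 1809 for HB, and at least an 8-fold difference in 581 and 739. The vectors gave the same direction in 82.4% of all assessed bins, and only 4 bins differed 2-fold in opposite directions. Just inside the threshold, within 0.05 on the log2 scale, lay 196 bins for HE1 and 387 for HB, and just outside lay 274 and 280. The median log2 ratio over all assessed bins was 0.08 in pDONR and 0.12 in pSKB.

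Across bins, which are not independent, the log2 level correlated with r = 0.948 between the vectors in HB and r = 0.947 in HE1. Between the stages it was r = 0.581 in pDONR and r = 0.521 in pSKB. The ratios of the vectors correlated with r = 0.880. As pSKB was drawn from pDONR, these values describe how well the recloning kept the composition of the pools.

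**Figure D1:**
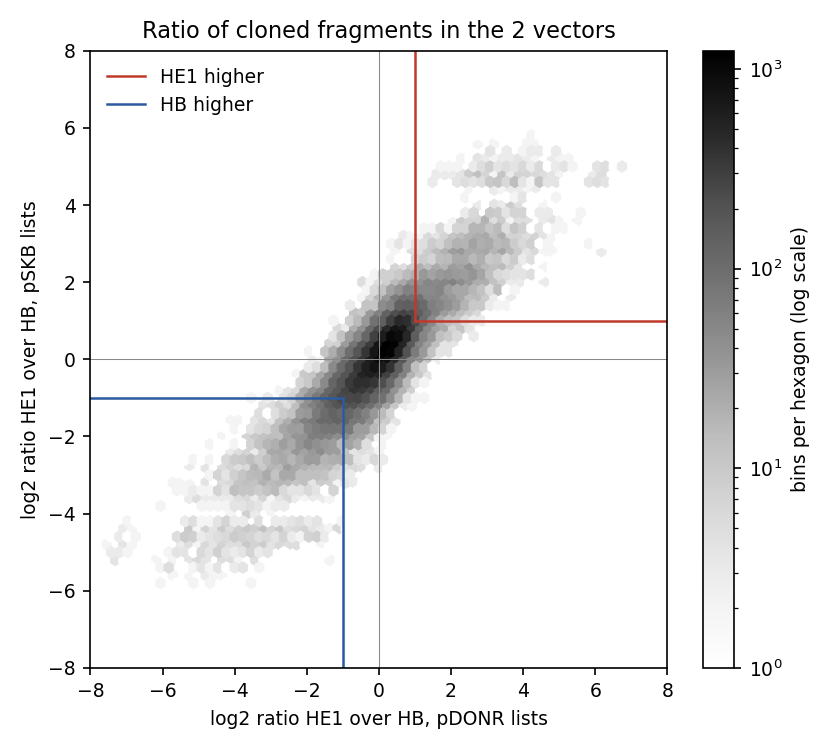
Log2 ratio of HE1 over HB in pDONR (x axis) against pSKB (y axis) for the 47039 assessed bins, shaded by the number of bins per hexagon on a log scale. The red and blue lines enclose the 4152 bins called higher in HE1 and the 5165 called higher in HB, and the bands set apart at the upper and lower end are bins in which, for the most part, 1 of the pSKB lists had no fragment.

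Fewer of the called bins than of all assessed bins lay at promoters. While 62.3% of the assessed bins were within 1.5 kb of a protein-coding transcription start, this was true of 21.3% of the bins higher in HE1 and 30.7% of those higher in HB. Of the promoter bins, 3.03% were higher in HE1 and 5.42% in HB, against 18.4% and 20.2% of the 17757 distal bins. A distal bin could pass the minimum of fragments through the stage in which it was high, so these shares depend in part on the filter. Distal bins higher in HE1 were in introns in 58.4% of cases and in exons in 5.02%. Those higher in HB were in introns in 48.7% and in exons in 13.0%, close to the 49.1% and 13.2% of all distal bins. The bins also differed in base composition. Distal bins had a median GC content of 54.2%, which was 51.2% in those higher in HE1 and 54.6% in those higher in HB. Of the class of bins with the lowest GC content, up to 49.4%, 26.3% were higher in HE1 and 11.4% in HB, while in the class with the highest GC content the shares were 3.05% and 2.86%. With the ratios centred within 10 classes of GC content, 3780 bins were higher in HE1 and 5593 in HB.

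The plasmid pools of the other stages did not take part in the calls. The bins higher in HE1 had a median of 1.61 FPM in pDONR HB and 7.28 in pDONR HE1, and in the pools not used they had 1.43 in ES, 5.84 in HE2 and 3.67 in HP. The bins higher in HB had 7.10 in pDONR HB and 1.82 in pDONR HE1, with 4.10 in ES, 1.74 in HE2 and 1.91 in HP. Over all assessed bins the medians in pDONR were 5.17 in ES, 5.84 in HE2 and 5.88 in HP. The bins higher in HE1 were thus at the level of all bins in HE2 and below it in ES and HP, while the bins higher in HB were below the level of all bins at each of the 3 stages and nearest to it in ES. When HE2 was compared with ES by the same rule, 16.1% of all assessed bins were higher in HE2 and 7.82% were higher in ES. Among the bins higher in HE1, 2574 (62.0%) were higher in HE2 than in ES and 48 (1.16%) were lower. Among the bins higher in HB, 205 (3.97%) were higher in HE2 and 2042 (39.5%) were higher in ES. In pSKB the medians in ES, HE2 and HP were 1.19, 5.43 and 3.86 for the bins higher in HE1 and 4.18, 1.81 and 2.32 for those higher in HB.

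**Figure D2:**
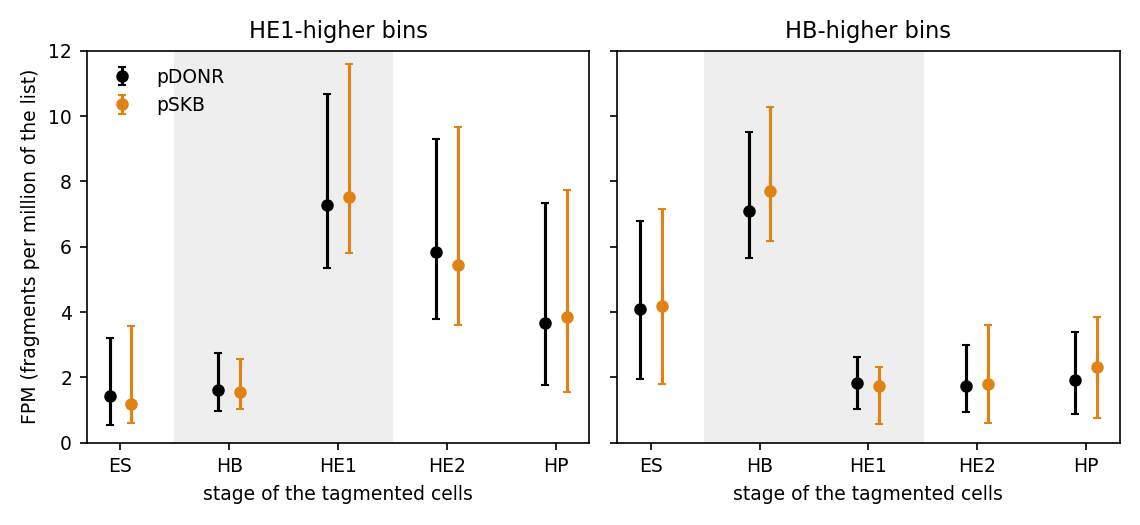
FPM in the 10 plasmid lists, with stages from ES to HP on the x axis, for the bins higher in HE1 (left) and those higher in HB (right). Points are medians over bins and bars span the quartiles, the shaded stages are those that chose the bins, and the bins higher in HE1 have 5.84 in pDONR HE2, the same as all assessed bins, while those higher in HB have 4.10 in pDONR ES, where all assessed bins have 5.17.

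Bins were ranked by the smaller of their ratios in pDONR and pSKB. The single bin with the largest difference towards HE1 lay 56.5 kb downstream of the start of Tmem170b, at chr13:41662501-41663000, between genes. It held 0 fragments in pDONR HB and 110 in pDONR HE1, and 0 and 28 in pSKB, which is at least 25.9-fold and at least 10.5-fold. There were 4 fragments in pDONR ES, 33 in HE2 and 14 in HP. The bin assigned to Dusp16, a MAP kinase phosphatase gene, held 0 and 130 fragments in pDONR and 0 and 22 in pSKB. That of Bach2, a transcriptional repressor of lymphocytes, held 0 and 110 fragments in pDONR and 0 and 21 in pSKB, with 63 in pDONR HE2 and 60 in HP. That of Lgr6, an R-spondin receptor gene, held 0 and 95 in pDONR and 0 and 20 in pSKB. The 12 bins with the largest differences, chosen by these counts, had 0 to 2 fragments in pDONR HB and 75 to 130 in pDONR HE1. The other 8 were nearest to Tns3, Nepro, Plec, Llph, Ubtd2, Vmp1, Nlk and Foxk2, where the Tns3 bin lay 221 kb from the start and was thus too far to be assigned.

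In the opposite direction, the largest difference lay 51.0 kb downstream of the start of Ddx1, at chr12:13198001-13198500, which held 124 fragments in pDONR HB and 2 in pDONR HE1 (87.9-fold, interval 23.8 to 734), and 50 and 0 in pSKB (at least 14.8-fold). In the pDONR pools of ES, HE2 and HP the bin had 2, 0 and 1 fragments, so that HB alone of the 5 stages was high. The same was seen for the bin in Dnah17 (115 and 2 in pDONR, 42 and 0 in pSKB, 5 in ES) and for that in Rftn1 (119 and 2, 33 and 0, 4 in ES). Other bins were also high in ES. Bicc1, an RNA-binding protein gene, had 75 and 1 fragments in pDONR HB and HE1 and 51 in ES. Hunk had 92 and 2, with 58 in ES, and Cmip had 161 and 4, with 73 in ES. The remaining 6 of the 12 were nearest to Tenm4, Parp11, Rmdn3, Lgalsl, Fam120b and Fstl4 and held 77 to 229 fragments in pDONR HB against 1 to 6 in HE1.

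Some genes had many called bins. Egfl7, which encodes a factor secreted by endothelium, had 16 of 25 bins higher in HE1 within 26.5 kb and none higher in HB, with median log2 ratios of 2.60 in pDONR and 2.76 in pSKB. Bahcc1 had 13 of 35, Rgs3, a regulator of G-protein signalling, 10 of 24, and Cbfa2t3, which encodes the corepressor ETO2, 9 of 18. Hspg2, the gene of the basement membrane proteoglycan perlecan, had 8 of 21, and Smad6, Tgm2, Tnfaip2, Tspan18 and Arap3 had 7 each, of 36, 8, 9, 17 and 12. Towards HB, Gse1 had 11 of 41 bins. Lhx1, a homeobox gene of early mesoderm, had 10 of 11, with median log2 ratios of -4.18 in pDONR and -3.37 in pSKB. Wnt3, the ligand needed for the primitive streak, had 9 of 19, and Axin2, a direct target of Wnt signalling, had 8 of 15 at -3.02 and -3.87. Grin2c, Psd2 and Zfp423 had 8 each, of 18, 17 and 22, and Cxxc5, Foxo6 and Sept9 had 7 each, of 39, 12 and 44. In Sept9 a further 6 bins were higher in HE1, in Gse1 and Zfp423 2 each, and in Wnt3 and Cxxc5 1 each. Of the genes named towards HE1, Tspan18 had 3 bins higher in HB, Bahcc1, Rgs3 and Smad6 had 2 each, and Cbfa2t3 and Tnfaip2 had 1 each. The remaining genes had none in the other direction. All were chosen for their number of calls, where 8.83% of all assessed bins were higher in HE1 and 11.0% in HB.

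Of the 14646 genes with an assessed bin, 17.2% had at least 1 bin higher in HE1 and 21.4% at least 1 higher in HB. A gene with more assessed bins has more occasions for a call. The lists below held more bins per gene, such as 195 for 36 endothelial and 216 for 24 mesoderm genes, against at most 47039 for all 14646. Their counts of genes are thus not directly comparable with these shares. The promoter itself was called in HE1 direction for 5.99% of 13293 genes and in HB direction for 9.93%. Against these, gene lists were read by their counts alone. Some genes belong to more than 1 list. As with the distal bins, a bin of a list could pass the minimum of fragments through the stage in which it was high. The shares of the lists thus depend in part on the filter.

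The endothelial list was shifted towards HE1. Of its 195 bins, 76 (39.0%) were higher in HE1 and 9 (4.62%) in HB, with median log2 ratios of 0.79 in both vectors. Of its 36 genes, 26 had a bin higher in HE1, 6 had one higher in HB, 5 of these had both, and 9 had neither. The promoter was higher in HE1 for 15 of 33 genes and in HB for none. In the bin at the promoter of Tie1, a receptor tyrosine kinase of endothelium, pDONR held 1 fragment in HB and 79 in HE1 (55.7-fold, interval 9.71 to 2228), and pSKB 0 and 13 (at least 4.89-fold). ES had none and HE2 had 32 in pDONR. The bin 14.3 kb upstream of Ptprb, which encodes the endothelial phosphatase VE-PTP, held 2 and 59 fragments in pDONR and 0 and 11 in pSKB. At the promoter of Pecam1, the adhesion molecule CD31, there were 8 and 175 fragments in pDONR (15.4-fold, interval 7.66 to 36.3) and 2 and 38 in pSKB (21.4-fold, 5.54 to 183), with 143 in pDONR HE2 and 108 in HP. This bin lies at another start than the first annotated start used for the markers. The bin 8.35 kb upstream of Eng, a TGF-beta coreceptor, held 10 and 173 fragments in pDONR (12.2-fold, 6.48 to 25.9) and 3 and 38 in pSKB (14.3-fold, 4.53 to 72.3). These 4 bins were chosen for their ratios, so their values are a description.

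Other regions of endothelial genes were more frequent in HB. An intronic bin of Nrp1, a VEGF coreceptor, held 36 fragments in pDONR HB and 3 in HE1, and 13 and 0 in pSKB. A bin 4.48 kb upstream of Aplnr, the apelin receptor of early mesoderm and vessels, had 110 and 12 in pDONR and 26 and 1 in pSKB. Bins of Nrp2 (53 and 12, 13 and 3) and of Cd34 (51 and 19, 20 and 5) were also higher in HB.

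The list for hemangioblast and mesoderm was shifted the other way. Of 216 bins, 80 (37.0%) were higher in HB and 13 (6.02%) in HE1, with median log2 ratios of -0.94 and -0.89. Among 24 genes, 21 had a bin higher in HB, 7 had a bin higher in HE1, all 7 of which had both, and 3 had neither. The promoter was higher in HB for 10 of 23 genes and in HE1 for none. The bin 4.04 kb from the start of Mesp1, a T-box target and factor of the earliest cardiovascular mesoderm, whose sequence is given above, had 44 fragments in pDONR HB and 1 in HE1 (62.4-fold, interval 10.6 to 2520) and 19 and 0 in pSKB (at least 5.62-fold). ES had 4 and HE2 had 5 in pDONR. An intronic bin of Lef1, a nuclear effector of Wnt signalling, had 43 and 0 in pDONR (at least 20.3-fold) and 16 and 0 in pSKB (at least 4.73-fold). A bin 3.77 kb from the start of Tbx6, a T-box gene of paraxial mesoderm, had 100 and 5 (28.4-fold, 11.8 to 89.3) and 37 and 1 (32.8-fold, 5.54 to 1331). An intronic bin of Wnt3 had 53 and 3 in pDONR and 13 and 0 in pSKB.

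**Figure D3:**
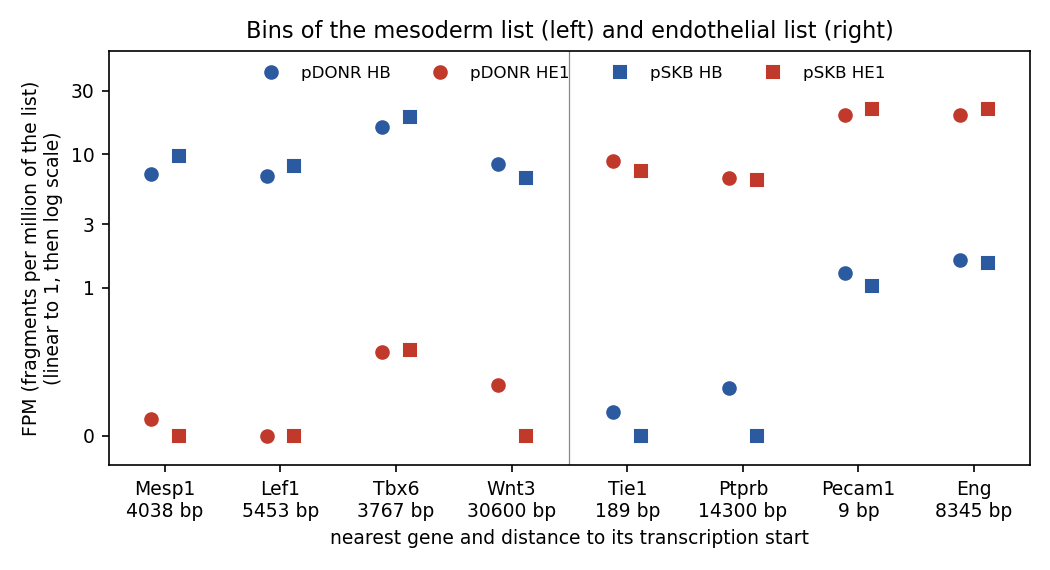
FPM in the bins of Mesp1, Lef1, Tbx6 and Wnt3 (left) and of Tie1, Ptprb, Pecam1 and Eng (right), with the distance from the nearest transcription start under each name, circles for pDONR and squares for pSKB. The y axis is linear up to 1 and logarithmic above, each point is 1 list, and HB (blue) lies above HE1 (red) in both vectors in the mesoderm bins and below it in the endothelial bins.

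The same list also held bins higher in HE1. At Wnt3, a second bin 78.6 kb from the start had 6 fragments in pDONR HB and 60 in HE1, and 0 and 11 in pSKB. An intronic bin 1.64 kb from a start of Gata4 had 4 and 46, and 2 and 12, and a bin 22.8 kb from T had 7 and 73, and 2 and 11. In pDONR HE2 and ES there were 46 and 0 fragments in the bin of Wnt3, 20 and 3 in that of Gata4 and 32 and 3 in that of T.

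**Figure D4:**
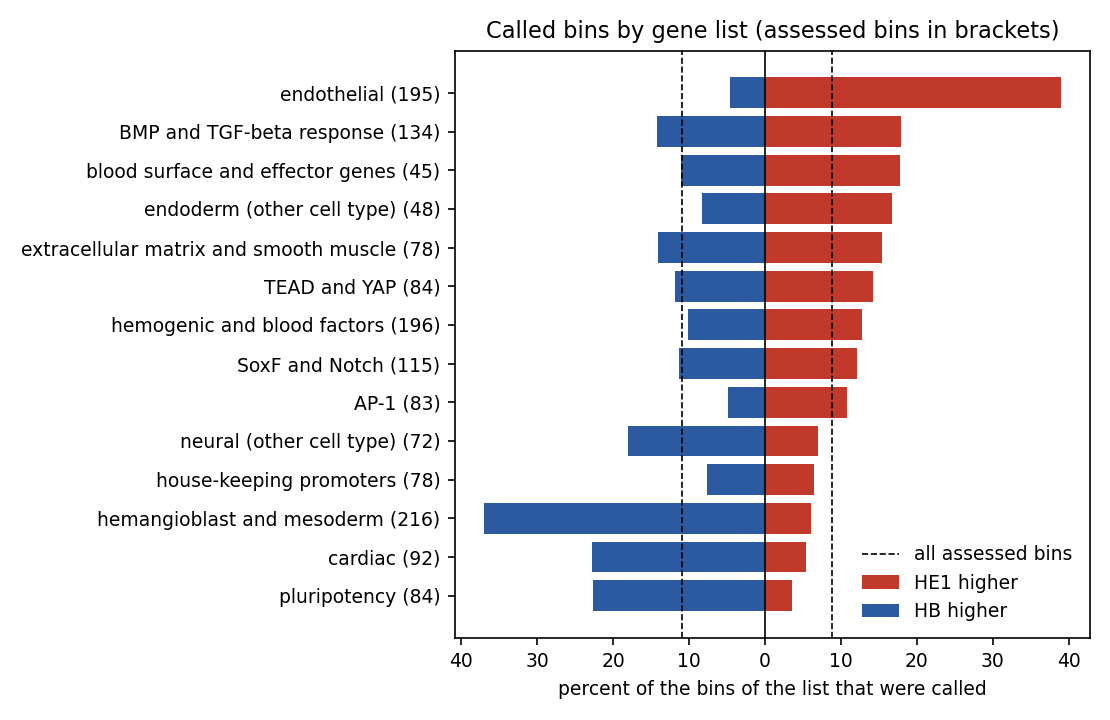
Share of the assessed bins that were higher in HE1 and in HB, in percent of the bins of each gene list, with HE1 to the right and HB to the left of 0. The dashed lines mark all 47039 assessed bins. The endothelial list reaches 39.0% towards HE1 and the hemangioblast and mesoderm list 37.0% towards HB, and all bins stand at 8.83% and 11.0%.

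Single regulators of hemangioblast, endothelium and blood were examined bin by bin. Kdr had 15 assessed bins, of which 6 were higher in HE1 and 2 in HB. The bin 30.3 kb upstream of its start had 57 fragments in pDONR HB and 2 in HE1 (40.4-fold, interval 10.7 to 342) and 14 and 2 in pSKB (6.21-fold), with 0 in pDONR ES and 1 in HE2. Its neighbour 29.8 kb upstream had 35 and 5, and 11 and 1. Only a few kb further, 35.8 kb upstream, the bin had 4 and 64 in pDONR and 2 and 12 in pSKB, with 23 in pDONR HE2. Within the gene, the bin 3.71 kb from the start had 6 and 40, and 0 and 10, that at 15.7 kb had 7 and 56, and 2 and 13, and that at 16.2 kb had 22 and 125, and 8 and 26. The 2 remaining bins, at 62.3 kb upstream and 77.7 kb downstream, were 3.60-fold higher in HE1 in pDONR. The other 7 bins, among them those at the promoter, were not called, and the promoter as a whole differed by a log2 ratio of 0.68 in pDONR and 0.80 in pSKB.

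Etv2, the ETS factor that specifies the hemangioblast, had 6 assessed bins and 2 of them, both at the promoter, were higher in HB. They held 31 and 17 fragments, and 40 and 27, in pDONR HB and HE1, which is 2.59-fold (interval 1.39 to 4.98) and 2.10-fold (1.26 to 3.56), and the pSKB intervals of both included 1. Cdh5, which encodes VE-cadherin, had 5 of 6 bins higher in HE1. Its promoter bin held 10 and 115 fragments in pDONR (8.11-fold, 4.25 to 17.4) and 5 and 23 in pSKB (5.19-fold). The bin 5.88 kb upstream had 11 and 137, and 3 and 29, and that 4.88 kb upstream, with the SOX word shown above, had 7 and 92, and 5 and 13. Mecom had 1 of 6 bins higher in HE1, with 2 and 38 fragments in pDONR (13.4-fold, 3.46 to 115) and 1 and 12 in pSKB (13.5-fold, 2.00 to 578). This bin, at chr3:30161001-30161500, lay in an exon, 20.8 kb upstream of the nearest annotated start. That start is an internal start of the gene, which has a further promoter bin at chr3:30508501-30509000.

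Runx1, the factor that drives the step from endothelium to blood, had 2 of 15 bins higher in HE1 and 4 higher in HB. The former lay next to each other 57.6 and 58.1 kb upstream of the nearest start and held 7 and 55, and 13 and 123, fragments in pDONR HB and HE1. They had 57 and 136 fragments in pDONR HE2 and 1 each in ES. Those higher in HB included a neighbouring pair 90.4 and 89.9 kb downstream of the nearest annotated start, which is an internal start of the gene, with 40 and 11, and 38 and 5, fragments in pDONR. Of the 7 bins of Tal1 and the 1 bin of Spi1, none was called.

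The list of blood transcription factors had 25 of 196 bins (12.8%) higher in HE1 and 20 (10.2%) higher in HB, against 8.83% and 11.0% of all assessed bins. Its median log2 ratios were 0.19 and 0.17. Of its 27 genes, 10 had a bin higher in HE1 and 10 had one higher in HB, with 5 counted in both. Those higher in HE1 were led by the promoter of Lyl1, a partner of GATA factors, with 16 and 287 fragments in pDONR (12.6-fold, interval 7.66 to 22.4) and 5 and 50 in pSKB (11.3-fold, 4.52 to 36.2). The promoter of Hhex, a homeobox gene of endothelium and liver, had 26 and 268, and 12 and 64. Bins of Zfpm1, the GATA cofactor FOG1, and of Cbfa2t3 had 5 and 48, and 2 and 39, in pDONR. Higher in HB were bins of Stat5a (42 and 5), Gfi1b (36 and 5) and Cebpb (69 and 10).

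The blood surface and effector genes had 8 of 45 bins (17.8%) higher in HE1 and 5 (11.1%) higher in HB, against 8.83% and 11.0% of all assessed bins. Their median log2 ratios were 0.22 and 0.25, and 7 of the 22 genes listed, among them the globin genes and Ptprc, had no assessed bin. The largest difference in pDONR was that of an intronic bin of Vav1, the blood-specific exchange factor, with 6 and 186 fragments (21.9-fold, interval 9.85 to 60.3) and 4 and 34 in pSKB. It held 171 in pDONR HE2, 172 in HP and 1 in ES. The promoter bin of Itga2b held 24 and 141, and 4 and 26. A bin 19.0 kb upstream of Tyrobp had 3 and 51, and 1 and 17, and one 93.2 kb upstream of Kit was higher in HB, with 46 and 5, and 16 and 2.

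SOXF and Notch genes were close to all assessed bins, with 14 of 115 bins (12.2%) higher in HE1, 13 (11.3%) in HB and median log2 ratios of 0.18 and 0.26. A bin 26.8 kb from Gja4, a connexin of arteries, held 4 and 58 fragments in pDONR HB and HE1 and 61 in HE2. Notch1 had a bin of each kind in its introns. The one 28.1 kb from the start had 7 and 85 in pDONR and 1 and 17 in pSKB, and the one 16.6 kb from the start had 88 and 3 (41.6-fold higher in HB, interval 13.8 to 206) and 30 and 0. A bin 34.9 kb upstream of Sox7 was higher in HE1 at 37 and 185, with 1 fragment in pDONR ES. Higher in HB in pDONR were bins 50.5 kb upstream of Hey1 (196 and 33), 90.4 kb downstream of Hes1 (36 and 3) and 10.5 kb upstream of Nrarp (46 and 10). No promoter of the list was higher in HB.

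Among signalling and matrix genes, the BMP and TGF-beta response list had 24 of 134 bins (17.9%) higher in HE1 and 19 (14.2%) in HB, against 8.83% and 11.0% of all assessed bins, with median log2 ratios of 0.16 and 0.17. An intronic bin of Tgfbr2, the type II receptor, held 0 and 45 fragments in pDONR (at least 10.6-fold) and 0 and 13 in pSKB (at least 4.89-fold). Smad6, an inhibitor of BMP signalling, had 6 and 111, and 1 and 27, at a bin 51.3 kb from the start. Bmper, a secreted BMP modulator, was higher in HB at a bin 19.3 kb upstream, with 46 and 2, and 15 and 0. The AP-1 list had 9 of 83 bins (10.8%) higher in HE1 and 4 (4.82%) in HB, with medians of 0.13 and 0.22. Its largest difference was at a bin 54.0 kb upstream of Jun, with 10 and 88 fragments in pDONR and 1 and 25 in pSKB. The TEAD and YAP list had 12 bins (14.3%) higher in HE1 and 10 (11.9%) in HB, of 84, with medians of 0.10 and 0.12. It was led by Amotl2, a YAP-binding angiomotin, at 13 and 206, and 3 and 41, while Tead1 had 1 bin with 4 and 88 in pDONR and another with 44 and 5. Genes of extracellular matrix and smooth muscle had 12 bins (15.4%) higher in HE1 and 11 (14.1%) in HB, of 78, with medians of 0.03 and 0.17. Sparc, a secreted matrix protein gene, had an intronic bin with 4 and 121, and 0 and 22, and another with 101 and 13, and 36 and 0. Acta2 (49 and 2) and Fn1 (77 and 5) had bins higher in HB.

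Among all assessed bins, 8.83% were higher in HE1 and 11.0% in HB, and most lists for other fates leaned further towards HB. Cardiac genes had 21 of 92 bins (22.8%) higher in HB and 5 higher in HE1, with median log2 ratios of -0.34 and -0.37. Actc1, the cardiac actin gene, had 44 and 3 fragments in pDONR and 18 and 1 in pSKB, and Smarcd3, which encodes BAF60C, had 66 and 5, and 19 and 2. Myocd, the coactivator of smooth and cardiac muscle, was higher in HE1 at an intronic bin with 4 and 99, and 2 and 29. Pluripotency genes had 19 of 84 bins (22.6%) higher in HB and 3 higher in HE1, and median log2 ratios of -0.39 and -0.45. The Nodal antagonist Lefty1 had 60 and 3 fragments in pDONR with 66 in ES, Nodal had 63 and 4 with 26 in ES, and Sall4 had 61 and 8 with 71 in ES. Pou5f1 and Zfp42 had no assessed bin. Of the 19 bins higher in HB, 4 were those of Tbx3, which is also in the mesoderm list. Neural genes had 13 of 72 bins (18.1%) higher in HB and 5 higher in HE1, at medians of -0.57 and -0.44. Endoderm genes had 4 of 48 bins (8.33%) higher in HB and 8 (16.7%) higher in HE1, and their medians of -0.21 in pDONR and 0.09 in pSKB differed in sign. Of these 8 bins, Hhex and Sox17 held 2 each and Gata4 held 1. Hhex is also in the list of blood factors, Sox17 in that of SOXF and Notch, and Gata4 in that of mesoderm. House-keeping genes had 6 of 78 bins (7.69%) higher in HB and 5 (6.41%) higher in HE1. Of their 21 promoters, 2 were higher in HE1 and none in HB, and the median log2 ratios were 0.27 and 0.30.

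In the distal bins, 32 groups of short sequence words were counted on both strands. A match is a description of the sequence and not of a bound factor. The AP-1 word TGANTCA was found in 34.6% of the distal bins higher in HE1, in 12.1% of those higher in HB and in 17.8% of all assessed distal bins. The ETS word ACAGGAA was found in 35.6%, 16.2% and 20.6%, and the SOX word ACAATGG in 13.8%, 4.83% and 6.92%. The GATA word AGATAA gave 30.7%, 23.6% and 21.6%. The composite of the words CANNTG and GATAA with a spacer of 8 or 9 bases gave 2.60%, 0.782% and 1.07%. In the other direction, the T-box word AGGTGTGA was found in 5.11% of the distal bins higher in HB, 1.84% of those higher in HE1 and 2.68% of all, and AGGTGTTA in 1.98%, 0.582% and 0.952%. The CTCF core was found in 3.84% of all distal bins but in 1.87% of those higher in HB and 0.429% of those higher in HE1. The TEAD word GGAATG was found in 32.4% of distal bins higher in HE1 and 26.7% of all, and the RUNX word TGTGGT in 35.5% and 30.3%. The GATA-E-box composite contains the core of the GATA word, so the counts of these overlap.

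As the called bins differed in GC content and such words do too, the shares were also taken within 3 bands of GC content. The AP-1 word stood at 36.8%, 33.6% and 27.4% of the distal bins higher in HE1 from the lowest to the highest band, against 23.5%, 18.9% and 10.7% of all distal bins. The ETS word was at 36.9%, 35.3% and 30.3%, against 27.3%, 21.9% and 12.5%, and the SOX word at 14.5%, 13.2% and 12.1%, against 8.98%, 7.35% and 4.35%. The GATA word was at 39.0%, 22.0% and 15.3% of the bins higher in HE1 and 39.7%, 21.6% and 11.2% of those higher in HB, against 34.0%, 20.5% and 9.89%, so the gap between the directions was seen only in the band of highest GC content. The T-box word AGGTGTGA was at 5.50%, 5.82% and 4.08% of the bins higher in HB, against 2.63%, 3.09% and 2.31%.

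The called bins were then looked up among the reporter fragments recovered from cells sorted at the HB or HE1 stage. These lists came from separate cultures of cells with integrated reporters, and they did not enter the calls. They do, however, mix reporters from several cloned pools, and a part of their fragments is identical to plasmid fragments that chose the bins. Where such fragments fall follows in part from the calls, so the tests below are not independent of the calls. Of the fragments in sorted HB lists, 7.58% to 23.2% were identical to a fragment of the HB plasmid lists, 15.6% to 38.0% to one of the HE1 lists and 15.3% to 70.3% to one of the HE2 lists. In sorted HE1 lists, 5.46% to 58.0% were identical to HE1 plasmid fragments and 3.14% to 29.2% to HB plasmid fragments. Depth was very uneven, from 1169 to 229656 distinct fragments per replicate. According to the methods, sorted fragments were also limited to peaks of open chromatin, and a filter by stage cannot be told apart from the stage of sorting. HE1 Negative replicate 3 and HE1 positive replicate 4 stood apart, as only 5.46% and 12.4% of their fragments were identical to HE1 plasmid fragments, against 24.8% or more in the other HE1 lists.

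For each replicate, the fragments in bins higher in HE1 were expressed as a percent of those in all called bins. In the plasmid lists themselves, this share was 16.8% for pSKB HB and 80.2% for pSKB HE1, and 27.4% in ES, 71.6% in HE2 and 63.0% in HP. In YFP-positive cells sorted at the HB stage it was 54.4%, 51.4%, 42.1%, 33.5% and 44.2% in replicates 1 to 5, a mean of 45.1% ± 8.23 (SD, n = 5). In YFP-positive cells sorted at the HE1 stage it was 75.8%, 83.4%, 72.6%, 51.7% and 75.1%, a mean of 71.7% ± 11.9 (SD, n = 5). The values overlapped only at HE1 replicate 4. The difference was 26.6 percentage points (exact two-sided permutation test over 252 splits, p = 0.0159, 0.0635 after Benjamini-Hochberg adjustment over 4 comparisons), and it was seen in 5 of 5 replicate numbers. It did not pass the threshold of 0.05 after adjustment.

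In cells without reporter activity, the share was 55.0%, 56.3%, 54.4%, 38.6% and 41.0% in the HB Negative lists (49.0% ± 8.53, SD, n = 5) and 83.6%, 79.4%, 39.6%, 65.9% and 67.7% in the HE1 Negative lists (67.3% ± 17.2, SD, n = 5). HE1 was higher by 18.2 percentage points (exact permutation test, p = 0.0873, adjusted 0.175) and in 4 of 5 replicate numbers, which did not pass the threshold. Positive cells differed from Negative cells by -3.90 percentage points at the HB stage (exact permutation test, p = 0.484, adjusted 0.627) and by 4.47 at the HE1 stage (exact permutation test, p = 0.627, adjusted 0.627). Neither was larger than the spread between replicates, and without replicate 3 the latter was -2.68.

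**Figure D5:**
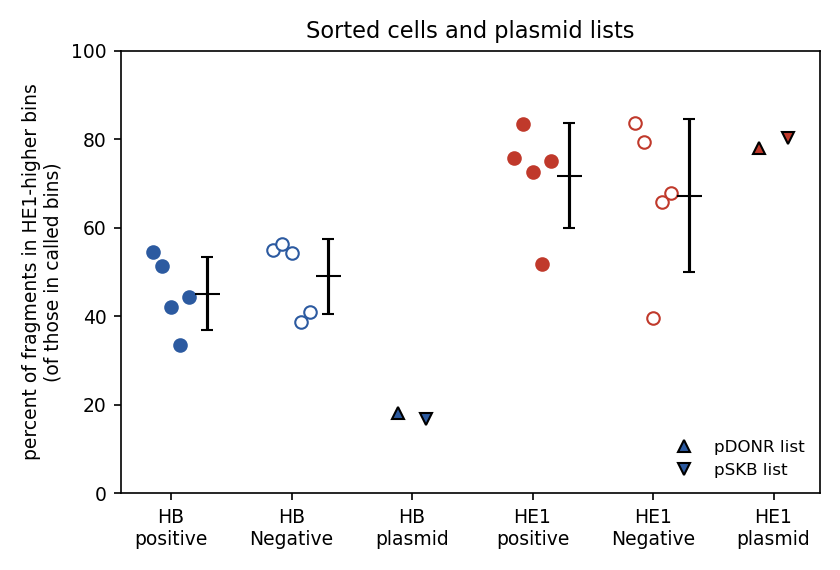
Share of fragments in called bins that lay in bins higher in HE1, in percent, for each of 5 replicates of YFP-positive and Negative cells sorted at HB and HE1, with the mean and SD. Triangles give the same share in the plasmid lists of HB and HE1, and the HE1 positive replicates lie between 51.7% and 83.4% against 33.5% to 54.4% for HB.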

How the data were processed

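The deposited plasmid lists give 1 row per distinct fragment with its number of reads as whole counts. The authors trimmed the reads with Trim Galore, mapped them to mm10 with Bowtie2, kept pairs of high mapping quality up to 600 bp with SAMtools and wrote each pair as 1 interval with bedtools. No normalization was applied to these lists. The sorted lists were deposited as intervals without read numbers, and the methods describe filters by the authors against the HM-1 controls, the plasmid lists and peaks of open chromatin. Some of these lists nevertheless held many fragments that were identical to no plasmid fragment. The sources used here do not say whether pools of several stages were integrated together.

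Distinct fragments on 21 chromosomes were counted by midpoint in 500 bp bins (Python 3.11.15, pandas 2.3.3, NumPy 2.4.6), scaled to the list total, and compared with 0.5 fragments added before log2 was taken. Starts were those of protein-coding genes in GENCODE on GRCm38, whose chromosome names and lengths match the files. Exons, introns and the space between genes were taken from annotated genes of every type. A promoter bin lay within 1.5 kb of a start. Upstream and downstream refer to the nearest annotated start, which can be internal to a gene. PCR reads carry no molecular identifier, so distinct fragments were counted and intervals cover counting error only. With 0 fragments in the lower list, the floor was 3 fragments in that list. Exact tests used SciPy 1.17.1, and edgeR 4.0.16 in R 4.3.3 was run as an alternative with the vector as a term. The scripts were tested on simulated data. The bins named were the 12 with the largest smaller ratio of the vectors in each direction, the 10 genes with the most called bins, up to 4 genes per list and direction, and Mecom, Runx1, Kdr, Spi1, Tal1, Cdh5 and Etv2. Not every bin that this rule names is reported here. The comparison, members, gene lists and words were chosen with earlier results of these data known. YFP-positive lists of a replicate were pooled. As a check of pairing, deviations from the group means over bins were correlated between sorted samples of the same number, and in none of 4 comparisons did all 5 correlations exceed 0.1.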

Additional observations from a re-analysis of the deposited data

How the results depend on the processing

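The 4152 bins higher in HE1 and 5165 higher in HB stayed within 1.5 times these counts under 11 and 12 of 18 alternatives. Other scalings moved the balance. With TMM factors the counts were 3779 and 5738, and with scaling to the fragments in assessed bins they were 3612 and 6123, so that the share of calls higher in HE1 was 37.1% in place of 44.6% and the median log2 ratio of all bins -0.05 in place of 0.10. At a 1.5-fold threshold the counts were 8104 and 8474, and at 3-fold 2478 and 2693. A minimum of 25 fragments, 5 of them in pSKB, gave 10433 and 13888, a minimum of 100 and 20 gave 1422 and 1376, and no filter gave 236190 and 293039. The pSKB ratio alone called 6893 bins higher in HE1 and 7564 higher in HB, and the pDONR ratio alone 5105 and 6714. Reads in place of fragments gave 5391 and 6050, of which 3254 and 3932 were among the bins of the main calls, and 3 bins higher in HE1 turned to HB. The quasi-likelihood test of edgeR at an adjusted p of 0.05, which takes the recloned vector for a replicate, gave 10747 and 11344, with 12242 and 12644 at an unadjusted p under 0.05. Under the other scalings, units and thinning at 2-fold, the endothelial list had 71 to 78 bins higher in HE1 and 7 to 11 in HB, and the mesoderm list 12 to 18 and 72 to 93.

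For sorted positive cells, the difference of 26.6 percentage points between HE1 and HB passed the adjusted threshold with bins called at 3-fold (39.9, adjusted p = 0.0317 by the exact permutation test), in High and Medium/High lists (32.5, 0.0317) and as a mean over libraries (30.4, 0.0317). With fragments identical to a plasmid fragment, the values were 32.9 for positive and 22.5 for Negative cells (exact permutation test, adjusted p = 0.0159 for each). These fragments include those of the lists that chose the bins, so nothing rests on this setting. The other settings also count such fragments. Passing the threshold there is thus no evidence of a difference independent of the calls. Leaving out 1 replicate number at a time gave 25.2 to 28.7 for positive and 15.6 to 26.5 for Negative cells. For positive against Negative cells it gave -5.70 to -1.81 in HB and -2.68 to 9.13 in HE1, where the sign turned without replicate 3 (-2.68). Correlations of deviations ran from 0.00067 to 0.335, and 3 or 4 of 5 pairs exceeded 0.1 in each comparison. Samples of the same number may thus be paired to some degree, which the tests without a block do not take into account. With the replicate number as a block, the adjusted p was 0.25 for the first 3 comparisons and 0.75 for the last, where 0.0625 is the smallest unadjusted p that 5 pairs allow. Only 1 transposed population per stage was cloned into the pools compared here, so a change between cultures could not be measured from them. Bins under the minimum of fragments were left out by the filter.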
